A study of Mus musculus with 2 samples.

Results

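The proteasome genes described here are the 40 protein-coding mouse genes whose symbol is Psma, Psmb, Psmc, Psmd or Psme followed by digits, leaving out the immunoproteasome subunits Psmb8, Psmb9 and Psmb10. They are 40 of 55536 annotated genes and fall into 8 Psma, 8 Psmb, 6 Psmc, 14 Psmd and 4 Psme genes. Their RNA was measured by ribosomal-RNA-depleted total RNA sequencing of a nuclear fraction, which the labels call both nucleoplasmic and nuclear. The cells were macrophages, phagocytes that were grown in culture from the marrow of C57BL/6J mice. All were given lipid A, the endotoxin part that stimulates TLR4, at 100 ng/ml for 12 h, then kept 12 h after washout, and then given 100 ng/ml lipid A again for 50 min. There was 1 group with 2 libraries, with an RNA input of 500 ng for replicate 1 and 1 µg for replicate 2, and no untreated or singly stimulated group was analysed here. The labels give both libraries the same donor entry, do not say whether the cultures or animals were separate, and record neither sex nor age. Values therefore describe levels in this 1 state, and p-values between the libraries measure counting error in these samples only.

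The gene-level tables held 20612078 and 22772081 counts for annotated genes in replicates 1 and 2. All 8 macrophage markers were well detected, at 40.9 to 1032 TPM in replicate 1 and 44.3 to 989 TPM in replicate 2. Of 25 markers of other blood, stromal and vessel cell types, 8 were at 0 in both libraries, and the highest reached 0.6 TPM in replicate 1 and 1.16 TPM in replicate 2. The nuclear RNA Malat1 was at 17537 TPM in replicate 1 and 10607 TPM in replicate 2.

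The proteasome is the protease that degrades ubiquitin-tagged proteins and cuts many of the peptides shown on MHC class I. Its 20S core is a barrel of outer rings of α subunits (Psma genes), which gate entry, and inner rings of β subunits (Psmb genes), of which Psmb5, Psmb6 and Psmb7 carry the active sites. The 19S regulatory particle binds and unfolds substrates with a ring of ATPases (Psmc genes) and non-ATPase subunits (Psmd genes), while Psme genes encode other caps of the core. Immune cells under interferon replace the active β subunits by Psmb8, Psmb9 and Psmb10. In the finished core, the subunits of a ring are present in equal number.

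The RNA of nearly all of these genes lay above the median of protein-coding genes. TPM is a level scaled by transcript length and by depth. Of the 40 genes, 39 had at least 10 counts over both libraries, and 38 had at least 100 counts in each, the exceptions being Psma8 and Psmb11. The median of the 39 was 14.7 TPM, with medians of 14.2 TPM in replicate 1 and 15.8 TPM in replicate 2, against a median of 3.58 TPM over 12140 protein-coding genes with the same minimum. Of the 39, 36 were above that median and 6 were above its 90 percentile of 28.7 TPM, namely Psme2, Psmb6, Psmd8, Psme1, Psmd2 and Psma3. Together the members took 27928 counts (0.135%) in replicate 1 and 32277 counts (0.142%) in replicate 2. Between the libraries, Spearman's rho of the 39 levels was 0.909, against 0.980 over the 12140 protein-coding genes (across genes, which are not independent replicates). In bulk RNA, the number of cells that hold an RNA and the amount in each cell cannot be told apart.

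**Figure D1:**
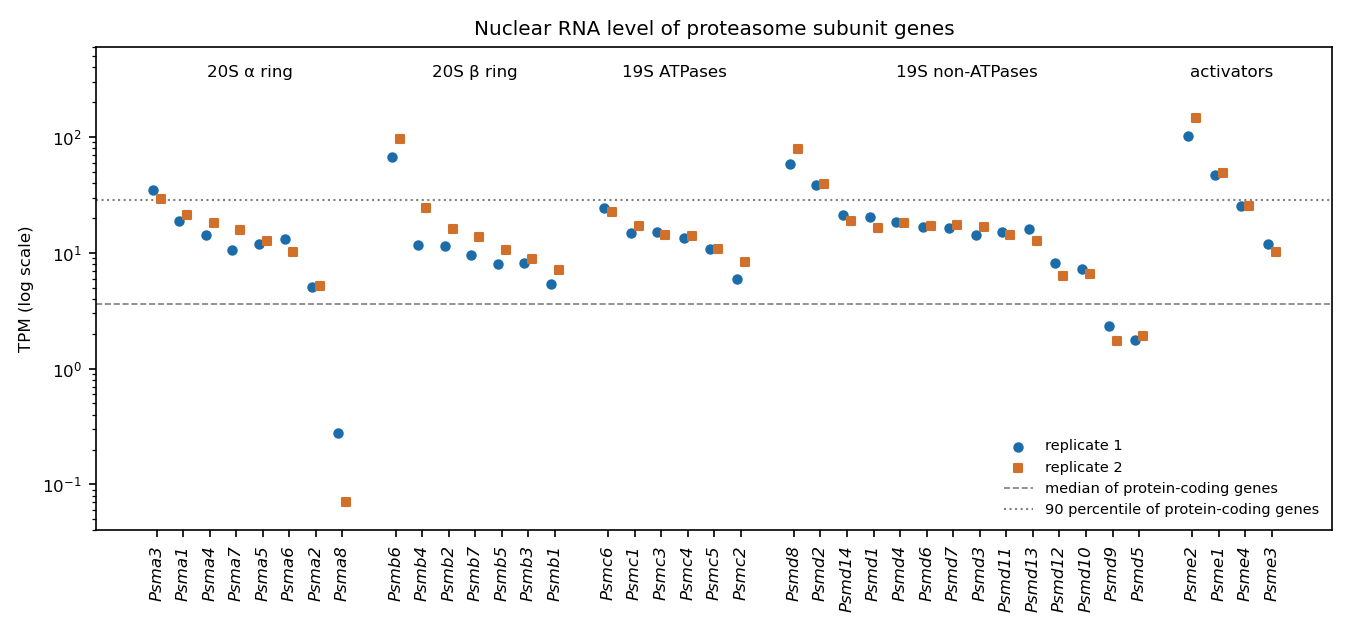
TPM of 39 proteasome genes (log axis), grouped by role, with replicate 1 as circles and replicate 2 as squares; dashed and dotted lines are the median (3.58 TPM) and the 90 percentile (28.7 TPM) of protein-coding genes. Psmb6 stands above the rest of the β ring in both libraries, the ATPases span the narrowest range, and Psmb11, at 0, is not drawn.

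In the α ring, Psma3 stood highest and the testis subunit Psma8 lowest, with few counts. Psma3 had 34.9 TPM in replicate 1 and 29.1 TPM in replicate 2. It was followed by Psma1, at 18.97 and 21.3 TPM in replicates 1 and 2, and Psma4, at 14.2 and 18.3 TPM. These 3 encode structural subunits of the ring. The lowest of the somatic subunits was Psma2, at 5.07 TPM in replicate 1 and 5.22 TPM in replicate 2. Psma8, which takes the place of Psma7 in male germ cells, had 13 counts (0.28 TPM) in replicate 1 and 3 counts (0.07 TPM) in replicate 2. The remaining members, Psma5, Psma6 and Psma7, lay between 10.2 and 15.8 TPM in the 2 libraries.

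The β ring was dominated by Psmb6, the caspase-like catalytic subunit. Psmb6 had 67.7 TPM in replicate 1 and 96.3 TPM in replicate 2, a mean of 82.0 ± 20.2 TPM (SD, n = 2). The next were Psmb4, a structural subunit, at 11.7 and 24.2 TPM in replicates 1 and 2, and Psmb2, another structural subunit, at 11.4 and 15.97 TPM. Psmb6 was above every other β gene in both libraries, with no overlap. The lowest detected were Psmb1, at 5.33 and 7.17 TPM in replicates 1 and 2, and Psmb3, at 8.16 and 8.79 TPM, both structural. Over the 7 detected β genes, the highest mean was 13.1 times the lowest. Psmb11, the catalytic subunit of thymic cortical epithelium, had 0 counts in both libraries, which allows up to 0.146 CPM in replicate 1 and 0.132 CPM in replicate 2 (3 counts, counting error only). The index-based transcript table instead gave Psmb11 174 estimated counts (0.529 TPM) in replicate 1 and 129 (0.205 TPM) in replicate 2. It lies beside Psmb5 on chromosome 14, 3410 bases from the start of that gene and on the other strand.

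Promoters of the catalytic genes Psmb5 and Psmb6 are shown because both hold the letters of the antioxidant response element, the element through which Nfe2l1 is known to raise proteasome genes when proteasome activity falls. The sequences are the 250 bases before the RefSeq start (GRCm38.p6), on the gene's strand, at chr14:54617996-54618245 on the minus strand for Psmb5 and at chr11:70525107-70525356 on the plus strand for Psmb6. Capitals mark TGACNNNGC.
Psmb5: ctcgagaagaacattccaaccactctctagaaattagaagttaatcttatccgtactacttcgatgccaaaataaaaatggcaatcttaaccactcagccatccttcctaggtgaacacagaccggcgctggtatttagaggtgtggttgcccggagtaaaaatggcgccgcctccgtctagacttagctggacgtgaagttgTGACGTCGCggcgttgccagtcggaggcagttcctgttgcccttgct
Psmb6: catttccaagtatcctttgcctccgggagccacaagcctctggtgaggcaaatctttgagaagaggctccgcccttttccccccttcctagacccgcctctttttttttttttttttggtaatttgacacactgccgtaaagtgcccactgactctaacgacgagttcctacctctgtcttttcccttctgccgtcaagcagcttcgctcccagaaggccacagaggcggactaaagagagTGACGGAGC
In Psmb5 the match lies 47 to 39 bases before the start, and in Psmb6 it lies 9 to 1 bases before it. RefSeq promoters were matched for 33 of the 40 genes (36 promoters). On either strand, TGACNNNGC was found in 5 of the 36 (13.9%: Psmb5, Psmb6, Psmc6, Psmd9 and Psmd12), against 10.2% of 32851 promoters of the same length. The interferon-stimulated response element was found in 3 (8.33%: Psmb3, Psmd4 and Psmd9), against 2.98% of all. The ETS letters CCGGAAGT were found in 6 promoters of 5 genes (16.7%: Psmc1, Psmc2, Psmd6, Psmd12 and Psme4), against 2.88%, and CCAAT was found in 13 (36.1%), against 33.8%. No motif searched is contained in another. These matches are descriptions of letters, and binding was not measured.

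Each catalytic gene was then set beside the immunoproteasome gene that replaces it. For the chymotrypsin-like site, Psmb5 was at 8.08 TPM in replicate 1 and 10.6 TPM in replicate 2, while Psmb8 was at 15.9 and 39.2 TPM. Psmb5 was thus the lower of the pair in both libraries, and the mean log2 ratio of Psmb5 over Psmb8 was -1.44 ± 0.65 (SD, n = 2). For the caspase-like site the order was the other way, with Psmb6 at 67.7 and 96.3 TPM in replicates 1 and 2 and Psmb9 at 15.7 and 24.3 TPM. Psmb6 was 4.31 times Psmb9 in replicate 1 and 3.97 times in replicate 2. For the trypsin-like site, Psmb7 was at 9.67 and 13.7 TPM in replicates 1 and 2 and Psmb10 at 33.4 and 72.0 TPM, a mean log2 ratio of -2.09 ± 0.43 (SD, n = 2). No p-value is given for these pairs, since 2 libraries cannot reach a permutation p below 0.5.

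The order of the first pair turned round when protein-coding transcripts alone were summed, an alternative added after the values were seen. Psmb5 then had 8.08 TPM in replicate 1 and 10.6 TPM in replicate 2, while Psmb8 had 2.03 and 7.25 TPM. Of Psmb8 TPM, 87.2% in replicate 1 and 81.5% in replicate 2 were assigned to transcripts outside the protein-coding class. The log2 ratio became 1.27 ± 1.03 (SD, n = 2). Psmb5 has no transcript annotated outside that class, so its level could not fall here and the ratio could only stay or rise. Psmb7 had 7.02 and 10.8 TPM in replicates 1 and 2 in such transcripts and Psmb10 had 8.53 and 12.9 TPM, a log2 ratio of -0.27 ± 0.013 (SD, n = 2). In the index-based table the libraries differed in sign, with 0.37 in replicate 1 and -0.22 in replicate 2 (0.075 ± 0.41, SD, n = 2). Psmb6 stayed above Psmb9, at 33.4 and 36.0 TPM in replicates 1 and 2 against 10.5 and 11.8 TPM.

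**Figure D2:**
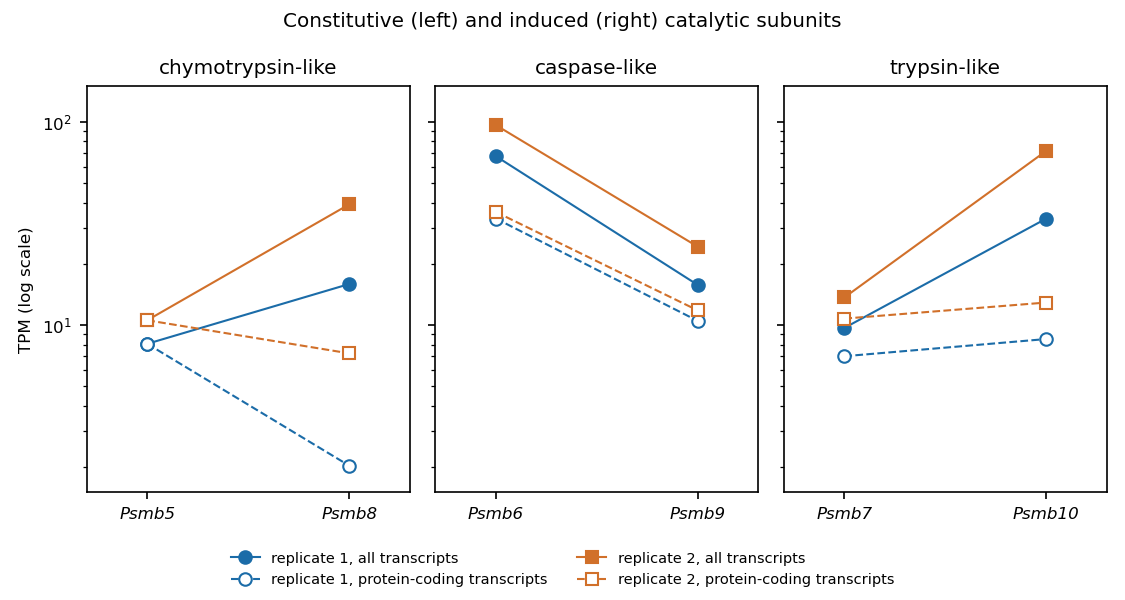
TPM (log axis) of each constitutive catalytic gene (left) and of the immunoproteasome gene that replaces it (right), with replicate 1 as circles and replicate 2 as squares. Solid lines sum all transcripts and dashed lines protein-coding transcripts alone: Psmb6 lies above Psmb9 either way, while Psmb5 lies below Psmb8 on the solid lines and above it on the dashed ones.

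Of the 5 groups, the ATPases had the narrowest range of levels. Their means ran from 7.16 TPM for Psmc2 to 23.6 TPM for Psmc6, a 3.30-fold range, and all 6 lay above the median of protein-coding genes. Psmc6 had 24.6 TPM in replicate 1 and 22.7 TPM in replicate 2, Psmc1 had 14.8 and 17.1 TPM, and Psmc3 had 15.1 and 14.4 TPM. Each encodes an ATPase of the ring that threads the substrate into the core. At the low end, Psmc2 had 5.91 and 8.41 TPM in replicates 1 and 2 and Psmc5 had 10.8 and 10.9 TPM. Psmc4 lay between, at 13.5 and 13.99 TPM. Exons of Psmc3 overlap those of Slc39a13 on the opposite strand (816 and 888 counts in replicates 1 and 2), and the sources used here do not say whether reads were counted by strand. Among other members with such an overlap is Psmb7 (450 and 621 counts in replicates 1 and 2), with Nek6 (721 and 604 counts). Psmd1 (Htr2b, 124 and 122 counts), Psmd13 (Sirt3, 70 and 81) and Psme1 (Emc9, 34 and 63) have one as well. The span of the immunoproteasome gene Psmb9 also overlaps that of Tap1 (8094 and 14065 counts) on chromosome 17.

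Among the 14 non-ATPase genes, subunits of the finished particle were high and assembly chaperones low. Psmd8, a subunit of the lid, was highest, at 58.5 TPM in replicate 1 and 79.5 TPM in replicate 2. Psmd2, which encodes the large scaffold that docks ubiquitin-like domains, had 38.4 and 39.2 TPM in replicates 1 and 2, and Psmd14, the deubiquitinase of the lid, had 21.3 and 19.03 TPM. Psmd1, Psmd3, Psmd4, Psmd6, Psmd7, Psmd11, Psmd12 and Psmd13, the other subunits, lay between 6.30 and 20.5 TPM in the 2 libraries. Psmd4 is a ubiquitin receptor, and the other 7 are scaffold or lid subunits. The lowest were Psmd5, at 1.77 TPM in replicate 1 and 1.92 TPM in replicate 2, and Psmd9, at 2.32 and 1.72 TPM. Both encode chaperones that help to build the ATPase base and leave it, as does Psmd10 (gankyrin), which had 7.31 and 6.62 TPM. The 3 chaperone genes had a median of 2.02 TPM and the 11 other genes 16.9 TPM, but Psmd10 and Psmd12 (8.19 and 6.30 TPM in replicates 1 and 2) overlapped.

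The activators held the highest gene of all 40. Psme2, the β subunit of the interferon-inducible 11S cap, had 103 TPM in replicate 1 and 147 TPM in replicate 2, a mean of 125 ± 31.1 TPM (SD, n = 2). Of this, 25.2 and 16.05 TPM in replicates 1 and 2 lay in Psme2-203, a retained-intron transcript of 185 bases with 10.7 and 13.5 estimated counts. Psme1, the α subunit of the same cap, had 46.6 and 49.2 TPM in replicates 1 and 2. Psme1 lies 5911 bases from Psme2 on chromosome 14, and the genes point towards each other. The mean log2 ratio of Psme1 over Psme2 was -1.36 ± 0.31 (SD, n = 2) over all transcripts. In protein-coding transcripts alone, Psme1 had 15.8 and 25.1 TPM in replicates 1 and 2 and Psme2 had 33.0 and 59.4 TPM. In such transcripts of the index-based table the order turned, with Psme1 at 9.26 and 6.53 TPM and Psme2 at 7.497 and 5.86 TPM. The order of these partners of 1 ring thus depended on how transcripts were counted. The tables also differ in the counts they give to Psme2b, a near copy of Psme2 described below. Psme4, which encodes a large cap of a single chain found in the nucleus, had 25.5 TPM in replicate 1 and 25.6 TPM in replicate 2. The nuclear 11S subunit gene Psme3 was lowest, at 11.9 and 10.3 TPM in replicates 1 and 2.

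Psme2 has a near-identical copy, Psme2b, which the choice of symbols leaves out. Psme2b had 24.4 TPM in replicate 1 and 43.7 TPM in replicate 2 (501 and 967 counts). In the index-based table it had 27.9 and 19.3 TPM in replicates 1 and 2 (1563 and 1947 estimated counts). How reads were divided between Psme2 and Psme2b was not tested. The coding sequences of transcripts Psme2-208 and Psme2b-201 are 717 bases each and differ at 5 bases (99.3% identity, no gap), with an identical run of 311 bases. A window of 90 coding bases that holds 3 of the differences (bases 454 to 543 from the start codon, capitals at the differences, mm10 with GENCODE M21) shows how little sequence separates them.
Psme2: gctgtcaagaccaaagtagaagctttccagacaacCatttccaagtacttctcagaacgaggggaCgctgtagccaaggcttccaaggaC
Psme2b: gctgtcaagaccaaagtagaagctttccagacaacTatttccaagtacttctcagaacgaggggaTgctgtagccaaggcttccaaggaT
The window spans chr14:55588049-55588276 on the minus strand for Psme2, where it is broken by an intron, and chr11:48945576-48945665 on the minus strand for Psme2b, where it is unbroken. Counts of Psme2 and Psme2b in these coding bases are therefore uncertain. In the gene-level tables, the authors' deposited standard deviation of counts from shared reads was 0.187% of the Psme2 count in replicate 1 and 0.116% in replicate 2. It was at most 2.505% over all members (Psmd9), and it does not cover the difference between the tables.

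A sizeable part of the RNA of these genes was assigned to transcripts that GENCODE does not class as protein-coding. Over the 38 genes with at least 100 counts in each library, the median share of TPM outside that class was 24.2% (24.9% in replicate 1 and 24.6% in replicate 2), against 20.7% over 7845 protein-coding genes with the same minimum. Among genes that have such a transcript annotated the order turned, with 25.022% for 34 members and 26.004% for 6658 protein-coding genes. The retained-intron class had a median of 16.2% in the 38 genes and 10.03% in the 7845. The share was above 50% in 6 of 38 (15.8%), against 16.9% of the 7845. In the index-based table it was above 50% in 12 of 38 (31.6%), against 27.8%. At the other end, the share was 0 for Psma2, Psma5, Psmb5, Psmd10 and Psmd12, of which Psma5 has such a transcript annotated.

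Of the 6 genes above 50%, 4 (Psma3, Psmb6, Psme1 and Psme2) were also among the 6 above the 90 percentile of levels. The same overlap was not counted over all protein-coding genes. The 2 lists are not independent, since TPM in non-coding transcripts adds to both the level and the share. Psma3 was highest, with 88.2% in replicate 1 and 87.3% in replicate 2, most of it in the retained-intron transcript Psma3-203 (37.4% and 59.9% in replicates 1 and 2) and in transcripts marked for nonsense-mediated decay. Psmc6 had 64.1% and 67.1% in replicates 1 and 2, Psme2 67.9% and 59.5%, and Psmd6 58.5% and 67.5%. TPM weights short transcripts heavily: by expected counts, Psmc6 had 30.9% and 34.2% in replicates 1 and 2, Psme2 43.0% and 42.5%, and Psmd6 40.7% and 50.8%. By the mean share of counts, 2 of the 6 (Psma3 and Psmb6) were above 50%. By TPM, Psmb6 had 50.7% in replicate 1 and 62.6% in replicate 2, all in the retained-intron class. Of the 6, Psme1 differed most between the libraries, with 66.1% in replicate 1 and 48.9% in replicate 2. There the decay transcript Psme1-209 took 47.1% (22.0 TPM, 162 estimated counts) in replicate 1 and 4.19% (2.06 TPM, 17.7 estimated counts) in replicate 2, and the index-based table gave it 7.43 TPM in replicate 1 and 0 TPM in replicate 2. By expected counts, the share of Psme1 outside the protein-coding class was 44.0% in replicate 1 and 41.2% in replicate 2. The difference in 1 transcript was not tested.

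**Figure D3:**
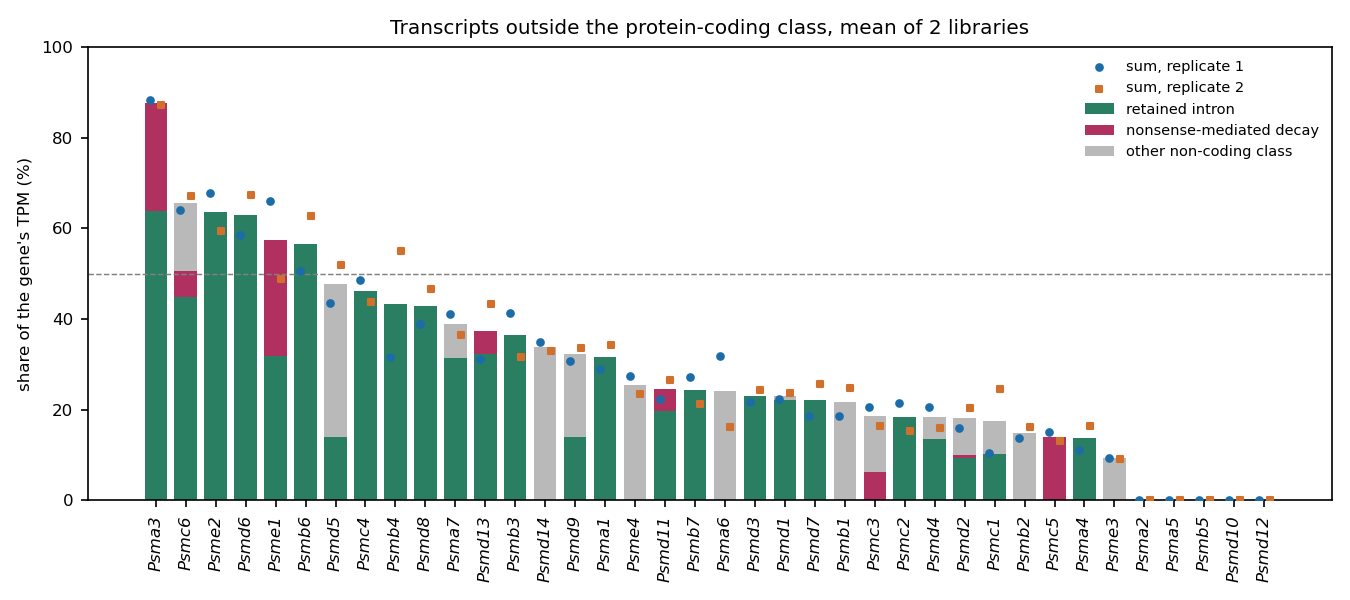
Share of each gene's TPM (%) in transcripts outside the protein-coding class, for 38 genes; bars are the mean of both libraries split by annotated class, circles are replicate 1 and squares replicate 2, and the dashed line is 50%. Psma3 is highest at 88.2% and 87.3%, and Psme1 has the widest nonsense-mediated decay segment, 47.1% in replicate 1 and 4.19% in replicate 2 for Psme1-209.

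The ends of 1 retained intron are printed for each of 4 of these genes. The class share sums whole transcripts, and reads that cross these ends were not counted separately. Exon bases are in capitals and intron bases in lower case, 30 of each, on the gene's strand (mm10, GENCODE M21).
Psma3 donor: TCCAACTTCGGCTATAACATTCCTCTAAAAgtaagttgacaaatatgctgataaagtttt
Psma3 acceptor: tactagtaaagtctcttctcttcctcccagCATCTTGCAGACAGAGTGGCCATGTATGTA
Psmb6 donor: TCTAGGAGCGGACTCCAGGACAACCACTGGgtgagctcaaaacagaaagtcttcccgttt
Psmb6 acceptor: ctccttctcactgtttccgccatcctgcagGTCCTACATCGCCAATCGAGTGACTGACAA
Psme1 donor: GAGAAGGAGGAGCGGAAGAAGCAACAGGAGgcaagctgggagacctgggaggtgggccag
Psme1 acceptor: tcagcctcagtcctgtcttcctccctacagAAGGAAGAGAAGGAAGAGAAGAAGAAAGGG
Psme2 donor: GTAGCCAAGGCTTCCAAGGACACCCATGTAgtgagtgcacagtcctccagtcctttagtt
Psme2 acceptor: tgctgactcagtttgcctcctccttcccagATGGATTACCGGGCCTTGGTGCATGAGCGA
The introns lie at chr12:70984595-70984671 (plus strand, 77 bases) in Psma3, chr11:70525953-70526293 (plus strand, 341 bases) in Psmb6, chr14:55580042-55580113 (plus strand, 72 bases) in Psme1 and chr14:55587741-55588039 (minus strand, 299 bases) in Psme2. Each is flanked by coding exons of the spliced transcript and is kept whole in Psma3-203, Psmb6-203, Psme1-207 and Psme2-210. The Psme1 intron begins with gc and the other 3 with gt, and all 4 end with ag. Psmb6-203 took 16.5% of Psmb6 TPM in both libraries, Psme2-210 took 11.6% and 11.2% of Psme2 TPM in replicates 1 and 2, and Psme1-207 took 8.58% and 22.1% of Psme1 TPM. Retained-intron transcripts with a larger share than those printed include Psmb6-202 (22.6% and 30.4% in replicates 1 and 2) and Psme2-207 (21.5% and 19.5%). The short Psme2-203 (185 bases) took 24.5% of Psme2 TPM in replicate 1 and 10.9% in replicate 2, from 10.7 and 13.5 estimated counts.

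Counting protein-coding transcripts alone changed the order within the core most for Psma3. Psma3 had 4.11 TPM in replicate 1 and 3.71 TPM in replicate 2 in such transcripts, so that the highest α gene by all transcripts was the lowest somatic 20S gene by coding ones. In the index-based table, Psma3 had 4.75 and 1.66 TPM in replicates 1 and 2 in coding transcripts and was not lowest, being above Psmb1 at 2.73 and 1.43 TPM. Psmb6 remained the highest of the core, at 33.4 and 36.0 TPM in replicates 1 and 2. Over the 14 somatic 20S genes (without Psma8 and Psmb11), the highest mean was 15.9 times the lowest by all transcripts and 8.88 times by coding transcripts. Psme2 had 33.0 TPM in replicate 1, where Psmd8 (35.7 TPM) and Psmb6 (33.4 TPM) were above it, and 59.4 TPM in replicate 2, where it was highest. In the index-based table Psme2 had 7.497 and 5.86 TPM in replicates 1 and 2 in coding transcripts, below Psmb6 at 20.6 and 11.5 TPM. There its near copy Psme2b had 27.9 and 19.3 TPM. Reads that several transcripts share are divided among them by estimation, so these levels carry more error than gene-level ones, and its size is not known from 2 libraries.

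**Figure D4:**
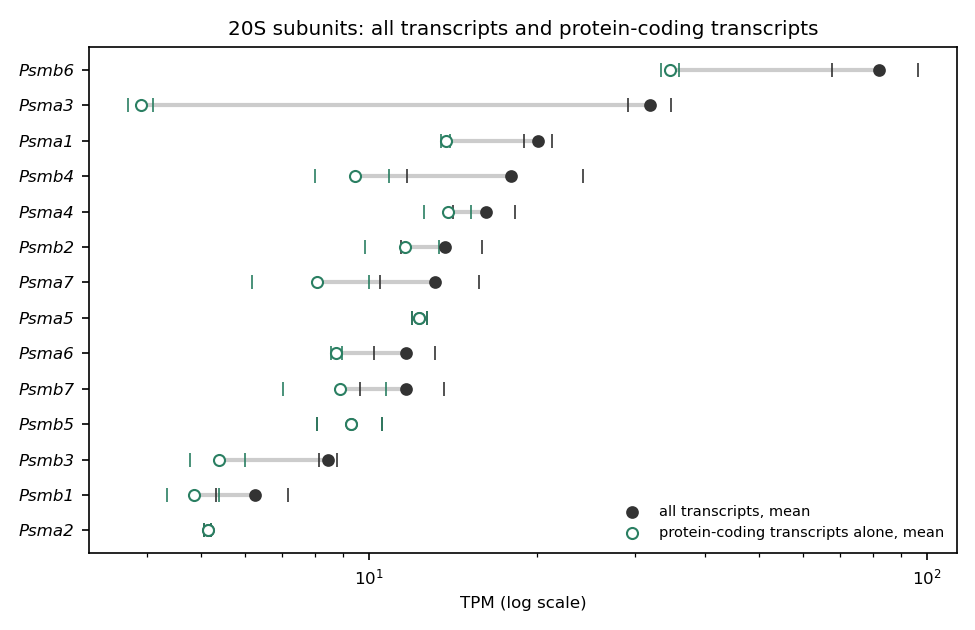
Mean TPM (log axis) of 14 genes of the 20S core by all transcripts (filled) and by protein-coding transcripts alone (open); ticks are the 2 libraries. Psma3 moves furthest, to 4.11 and 3.71 TPM, while Psmb6 stays at the right end.

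Between the libraries, most genes of the constitutive proteasome differed by less than a factor of 2, while the immunoproteasome genes Psmb8 and Psmb10 were lower by more than that in replicate 1. Log2 ratios are of replicate 1 over replicate 2 after TMM scaling, and a gene was called at a Benjamini-Hochberg adjusted p under 0.05 (exact binomial test over all genes) and a log2 ratio of 1 or more in size. Of 16140 genes tested, 6.65% were called, and of the 39 members tested 1 was called. Among protein-coding genes 4.14% were called, and among those with 100 counts in each library 1.43%, against 0 of the 38 members with that minimum. That member was Psma8, with 13 counts in replicate 1 and 3 counts in replicate 2 (log2 ratio 2.01, 95% interval 0.32 to 4.63, exact binomial adjusted p = 0.0311). It was called by the binomial test but not with a preset dispersion, and its counts are few. With no minimum ratio, 19 of 39 members passed, 5 higher and 14 lower in replicate 1. Of all genes 38.8% passed, and of 12140 protein-coding genes 5122 passed. The median log2 ratio of the members was -0.032, against -0.0057 over all genes tested.

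Ratios of both signs occurred within most groups, and differences between groups were not tested. All 7 tested β genes had ratios below 0 after TMM scaling, with a median log2 ratio of -0.45. Of these, 6 passed the adjusted p with no minimum ratio. By library totals the direction of Psmb3 flips. Of the 14 non-ATPase genes, 10 had ratios above 0 and 4 below, with a median of 0.049, but the index-based table gave 5 above and 9 below. The α genes had a median of -0.086, the ATPases -0.060 and the activators -0.31. The largest ratios among genes with 100 counts in each library were -0.77 for Psme2, -0.66 for Psmb4, 0.62 for Psmd9, -0.61 for Psme1 and -0.55 for Psmb6. In the index-based table Psmb4 was at -0.91, and Psmd9 was at 0.16 and did not pass (exact binomial adjusted p = 0.386). Psme2 had 1366 counts in replicate 1 and 2435 in replicate 2 (95% interval of the log2 ratio -0.86 to -0.67), and Psme1 had 836 and 1337 counts. Both were lower in replicate 1 by the adjusted p alone, as were all 3 immunoproteasome genes, and neither reached the minimum ratio.

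Psmb8 had 553 counts in replicate 1 and 1410 in replicate 2, a log2 ratio of -1.28. Psmb10 had 552 and 1170 counts in replicates 1 and 2, a log2 ratio of -1.02, and both were called. Psmb10 was not called by library totals or in the index-based table, and neither was with a preset dispersion of 0.04. Psmb9, with 600 counts in replicate 1 and 1155 in replicate 2 (log2 ratio -0.88), did not reach the minimum ratio. The RNA input of the libraries differed as well, and its part in these differences cannot be told apart from that of anything else that differed between the libraries.

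**Figure D5:**
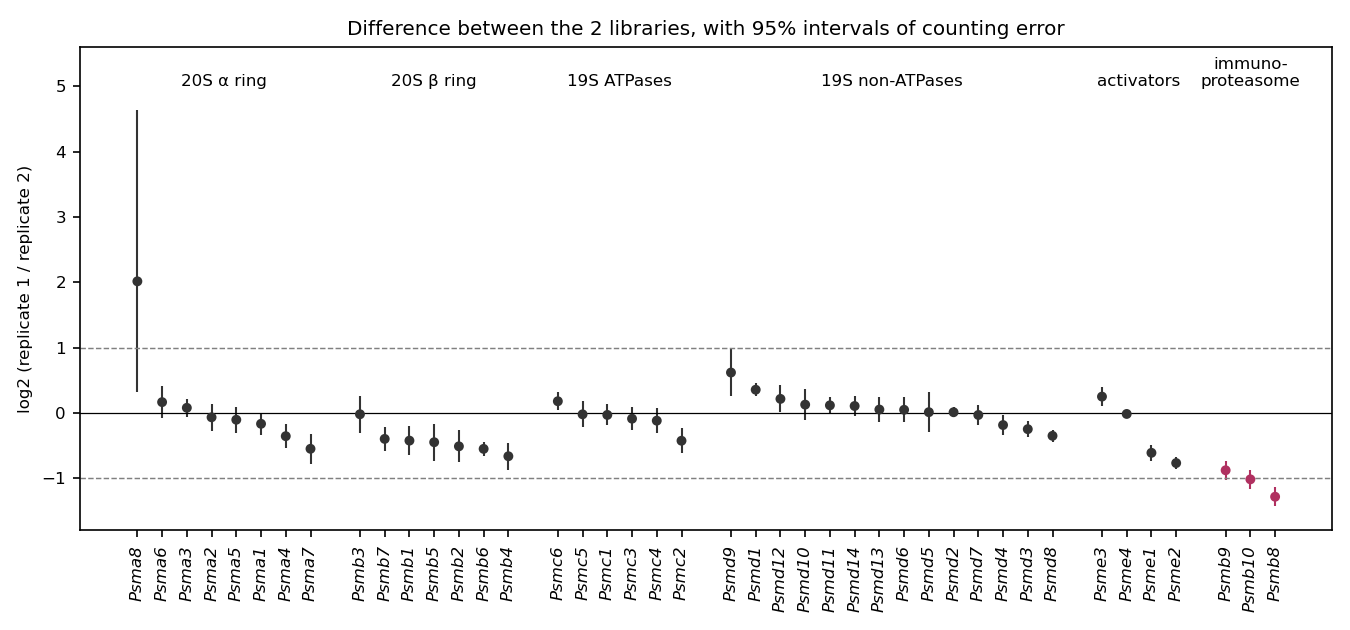
Log2 ratio of replicate 1 over replicate 2 for 39 proteasome genes and the 3 immunoproteasome genes (red), with 95% intervals from counting error; dashed lines mark ratios of -1 and 1. The 7 β genes lie at or below 0, and Psmb8 and Psmb10 lie past -1.

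Genes that work with the proteasome were at very different levels. Peptide transport and loading genes for MHC class I had a median of 125 TPM (n = 5), led by B2m, the light chain of MHC class I, at 419 TPM in replicate 1 and 534 TPM in replicate 2, and Tapbp (tapasin), at 319 and 464.5 TPM. The list called transcription control (Nfe2l1, Nfe2l2, Nrf1, Ngly1 and Vcp) had a median of 59.1 TPM (n = 5), which is the mean level of Vcp. That list was led by Nfe2l2, the oxidative stress factor, at 132 and 130 TPM in replicates 1 and 2, and Nfe2l1, at 73.8 and 100 TPM. The ubiquitin genes and activating enzymes reported here had a median of 25.4 TPM (n = 5), led by the polyubiquitin gene Ubb, at 52.5 and 79.1 TPM in replicates 1 and 2, and Rps27a, which encodes ubiquitin fused to a ribosomal protein, at 45.0 and 48.2 TPM. Receptors, shuttles and deubiquitinases had a median of 7.55 TPM (n = 12), led by the ubiquitin receptor Adrm1, at 16.9 and 22.3 TPM in replicates 1 and 2, and Sem1, a small lid subunit, at 12.5 and 16.01 TPM.

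Lowest were the assembly chaperones and the inhibitor, with a median of 1.44 TPM (n = 7, with Paaf1 not analysed here). That list was led by Ecpas, which tethers or disassembles proteasomes, at 23.3 TPM in replicate 1 and 22.5 TPM in replicate 2, and Pomp, the maturation factor of the core, at 8.16 and 13.5 TPM. Its other 5 genes lay at means of 0.68 to 1.51 TPM, near Psmd5 and Psmd9 among the chaperones named above. None of the 34 genes of these 5 lists was called between the libraries, against 6.65% of all genes and 4.14% of protein-coding genes. Among protein-coding genes with 100 counts in each library, 1.43% were called. By the adjusted p alone, 5122 of 12140 protein-coding genes passed. With no minimum ratio, where 38.8% of all genes passed, the genes that passed were 4 of 5 for peptide loading, all lower in replicate 1, 5 of 5 for ubiquitin, 1 higher and 4 lower, 3 of 5 for transcription control, 2 higher and 1 lower, 5 of 12 for receptors, 3 higher and 2 lower, and 2 of 7 for assembly, 1 higher and 1 lower.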

How the data were processed

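The authors deposited, per library, a gene-level table, an alignment-based transcript table and an index-based transcript table (mm10, GENCODE M21, per the file headers). Tool names, their versions and the use of strand in counting: not given in the sources used here. Expected counts, estimates that the authors deposited, were rounded to whole numbers. TPM and FPKM are as the authors deposited them; very short RNAs take most of TPM. Another deposited column is the authors' standard deviation of counts from shared reads. Reads of unspliced RNA can be assigned to retained-intron transcripts, whose part was not tested.

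Rows naming no annotated gene (26248 numeric rows, 7.27e-05% and 8.78e-05% of counts, and 97 control rows, 0.144% and 0.0809%, in replicates 1 and 2) were left out. Scaling used TMM (edgeR 4.0.16, R 4.3.3). Each of 16140 genes with at least 10 counts was compared between libraries by a two-sided exact binomial test (scipy 1.17.1) with 0.5 added to counts for ratios, Benjamini-Hochberg adjusted; intervals and p-values cover counting error only. The test was tried on simulated data. No model of condition was possible with 1 group.

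The members and lists were chosen with earlier results of these data known. Named genes were, by role, the 3 highest and 2 lowest by mean TPM; all catalytic and activator genes; called genes; genes under 10 counts; the 5 largest ratios and 5 highest non-coding shares among genes with 100 counts in each library; and per related list the 2 highest. Psmd12 and Psmb3 beside these, Psmd10, Psme2b and Psme1-209 were named after their values were seen. Of the ubiquitin list, 1 gene is not reported here. Alternatives covered scaling, count minimums, the added count, the minimum ratio, preset dispersions, the table, FPKM, single libraries and, added later, protein-coding transcripts alone.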

Additional observations from a re-analysis of the deposited data

How the results depend on the processing

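Counting protein-coding transcripts alone, an alternative chosen after seeing the data, reversed Psmb5 over Psmb8 (log2 1.27, and 0.70 in the index-based table, against -1.44). Psmb5 has no transcript annotated outside the protein-coding class, so that ratio could only stay or rise. The same alternative turned the mean of Psmb7 over Psmb10 to 0.075 in the index-based table (0.37 in replicate 1, -0.22 in replicate 2). In the alignment-based one it moved that mean to -0.27, against -2.09. Psmb6 over Psmb9 kept its direction at 1.64 and 1.93 in these tables and at 2.22 with all transcripts of the index-based table, against 2.05. With single libraries the 3 log2 ratios ranged from -1.90 to -0.98, 1.99 to 2.11 and -2.40 to -1.79. The median level of the members was 9.45 TPM in coding transcripts alone, 22.8 as FPKM, 68.3 TPM after rescaling to protein-coding genes and 7.12 TPM in the index-based table, against 14.7 TPM. Under the alternatives run, 36 members stayed above the protein-coding median, except 31 where 100 counts in each library were required. The number above the 90 percentile ranged from 4 with that minimum to 9 in the index-based table, against 6. The median share outside protein-coding transcripts was 35.7% in the index-based table and 20.1% of expected counts, and 24.6% to 24.9% with single libraries. Members called numbered 0 among genes with 100 counts in each library, 0 and 0 in the edgeR exact test with dispersions of 0.01 and 0.04, and 19 with no minimum ratio, while all genes called numbered 172, 743, 196 and 6255, against 1073. The index-based table called 2312 genes, 55.6% of them higher in replicate 1, against 30.3%. The members' median log2 ratio was 0.046 by library totals, -0.061 by TMM over protein-coding genes and -0.095 in the index-based table. No paired analysis was possible because there is 1 group. Psma8, with 13 and 3 counts in replicates 1 and 2, is the member whose ratio rests on the fewest counts.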

Other observations

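Level and length were weakly related among these genes. Across the 39 members with 10 or more counts, mean TPM and effective length had a Spearman's rho of -0.38, and mean TPM and genomic span one of -0.33, while over 12140 protein-coding genes these were -0.02 and 0.07. TPM is itself scaled by length, so level and effective length are not independent measures. These are descriptions across genes of the same libraries, which share depth, and no test was run.

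The index-based table placed the members in nearly the same order (Spearman's rho 0.963 across 39 genes), with exceptions in both directions. Index-based over gene-level TPM had a median over protein-coding genes of 0.70 in replicate 1 and 0.33 in replicate 2. Relative to those medians, Psma2, whose product is a core α subunit, stood at 2.35 in replicate 1 and 1.86 in replicate 2, and Psmd14 at 2.14 and 1.63. At the low end, Psmd2 was at 0.69 in replicate 1 and 0.71 in replicate 2, and Psme1 at 0.66 and 0.75.

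Of the 40 genes, 8 lie on chromosome 11 and 6 on chromosome 14, and the 40 are spread over 16 chromosomes. Just Psmb5 with Psmb11 and Psme1 with Psme2 lie within 100 kb of each other.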
